A study of Mus musculus with 2 samples.

Results

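The genes described here are 8 that carry chemokine and myeloid growth factor signals in the developing brain: *Cxcl12*, *Cxcr4*, *Cxcl14*, *Cx3cl1*, *Cx3cr1*, *Csf1*, *Il34* and *Csf1r*. They were taken by gene symbol, and all 8 were found among the 24411 genes listed for each library. Mouse brains were frozen without fixation at embryonic day 16.5. The cortex and the subventricular zone (SVZ), where progenitors divide along the lateral ventricle, were cut out of stained sections by laser capture microdissection (LCM) and sequenced as bulk RNA, with 1 library from each area. The labels name no treatment, and the sources used here do not name the strain, the genotype, the sex or the number of embryos behind either library.

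Chemokines are small secreted or membrane-tethered proteins that steer cells through G protein-coupled receptors. In the embryonic forebrain CXCL12, acting on CXCR4, guides migrating interneurons and Cajal-Retzius cells. CX3CL1, made by neurons, is recognised by CX3CR1 on microglia, the macrophages of the brain. CSF1 and IL-34 are separate ligands of the receptor tyrosine kinase CSF1R, without whose signal microglia do not survive. CXCL14 is a chemokine whose receptor is less well defined.

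Reads that fell on genes came to 51435667 from SVZ RNA and 22050693 from cortex RNA, so the SVZ was sequenced 2.33 times as deeply. Values are CPM, the reads of a gene scaled to 1000000 gene-assigned reads, so that 1 read was worth 0.0194 CPM in SVZ RNA and 0.0454 CPM in cortex RNA. With 1 library per area there is no replicate check and no test between the areas. The 95% intervals are exact intervals of the read counts and cover the counting error of reads only. Reads without molecular identifiers can be PCR copies of the same molecule, so the counting error of molecules can be larger than these intervals show. Of genes averaging 1 CPM or more, 10 of 10 for apical progenitors and 9 of 9 for intermediate progenitors were higher in SVZ RNA. For excitatory neurons, 10 of 10 were higher in cortex RNA. The median log2 ratios of these lists were 4.01, 4.27 and -2.24. Over all 12738 genes averaging 1 CPM or more the median was 0.11, and 54.9% of these genes were higher in SVZ RNA. The lists were chosen with earlier results of these data known, so the counts are not an independent check of the labels.

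In 7 of the 8 genes the areas differed beyond counting error, as 86.8% of the 12738 genes averaging 1 CPM or more did. *Cxcl12*, *Cxcr4*, *Cxcl14*, *Cx3cr1*, *Csf1* and *Csf1r* had the higher CPM in SVZ RNA, *Cx3cl1* had the higher CPM in cortex RNA, and *Il34* differed by less than its counting interval. In this bulk RNA, more cells of a type and more RNA per cell cannot be told apart.

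Large differences were frequent in these libraries, and the 8 genes are read against all others. With no minimum on CPM, 5 of the 8 genes (*Cxcl12*, *Cxcr4*, *Cxcl14*, *Cx3cr1* and *Csf1*) were at least 4-fold higher in SVZ RNA, as were 11.8% of all 15847 genes with a ratio, and 1 of the 8 was at least 4-fold higher in cortex RNA, as were 9.30%. A mean of at least 1 CPM was reached by 6 of the 8 genes, the lowest of them *Cx3cl1* with 1.06 CPM. *Il34* with 0.823 CPM and *Cxcr4* with 0.625 CPM were below it. Of these 6, 4 were at least 4-fold higher in SVZ RNA and 1 in cortex RNA, against 10.2% and 7.01% of 12738 genes. *Cxcl14*, *Cx3cr1* and *Csf1* were below 1 CPM in cortex RNA, and *Cx3cl1* was below it in SVZ RNA. These genes passed the minimum only through the area where they were higher, so this count depends in part on the filter. Low genes spread more widely: among the 3711 genes with a mean of 1 to under 10 CPM, where 5 of the 8 lie, the shares were 18.6% and 12.6%, and 3 and 1 of those 5 were past 4-fold. The gene just inside the 4-fold limit was *Cxcr4* with 5.89-fold and the one just outside it *Csf1r* with 3.74-fold. A pseudocount of 1 CPM, which draws low levels together, left *Cxcr4* (log2 ratio 0.81) and *Cx3cl1* (-1.42) under 4-fold and brought *Cxcl14* to 2.22, *Cx3cr1* to 2.35 and *Csf1* to 2.53.

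**Figure D1:**
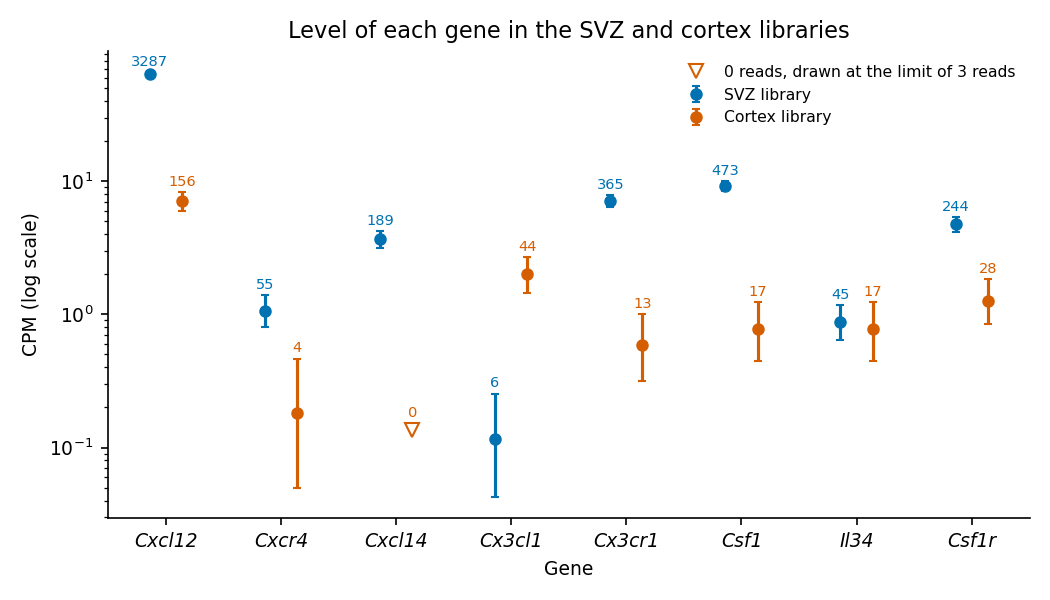
CPM of the 8 genes (log axis) in SVZ RNA (blue) and cortex RNA (orange), with exact 95% Poisson intervals of the counts and the read count printed above each point. *Cxcl12* lies highest in both libraries, the points of *Cx3cl1* stand in the opposite order to those of the other genes, and *Cxcl14*, with 0 cortex reads, is drawn as an open triangle at the limit of 3 reads.

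The promoters of *Cxcl12*, *Cxcr4*, *Cxcl14* and *Csf1* are shown because their RefSeq promoter windows hold no annotated exon of the same gene. Overlap with exons of other genes was not checked. These 4 genes were all at least 4-fold higher in SVZ RNA. Each sequence is the 250 bases before the RefSeq transcription start (build GRCm38.p6), written 5′ to 3′ on the strand of the gene. Capitals mark matches on either strand to GGGCGG, the GC box, and to TATAAA, the TATA box.

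Cxcl12, chr6:117168285-117168534, plus strand: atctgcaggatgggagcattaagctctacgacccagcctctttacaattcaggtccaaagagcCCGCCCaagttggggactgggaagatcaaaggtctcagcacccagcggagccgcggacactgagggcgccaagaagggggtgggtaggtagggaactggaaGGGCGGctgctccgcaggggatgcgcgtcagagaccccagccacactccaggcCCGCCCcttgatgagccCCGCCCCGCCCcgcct
Cxcr4, chr1:128592300-128592549, minus strand: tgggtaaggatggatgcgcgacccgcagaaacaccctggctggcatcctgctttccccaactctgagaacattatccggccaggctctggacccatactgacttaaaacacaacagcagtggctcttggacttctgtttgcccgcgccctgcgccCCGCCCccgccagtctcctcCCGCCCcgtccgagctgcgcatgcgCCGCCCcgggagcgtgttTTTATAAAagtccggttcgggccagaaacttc
Cxcl14, chr13:56296552-56296801, minus strand: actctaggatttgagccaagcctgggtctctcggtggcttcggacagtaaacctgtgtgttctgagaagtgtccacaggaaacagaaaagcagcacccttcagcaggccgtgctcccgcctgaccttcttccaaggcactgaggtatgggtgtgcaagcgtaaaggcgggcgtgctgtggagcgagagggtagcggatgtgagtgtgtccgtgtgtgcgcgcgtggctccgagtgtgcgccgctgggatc
Csf1, chr3:107760470-107760719, minus strand: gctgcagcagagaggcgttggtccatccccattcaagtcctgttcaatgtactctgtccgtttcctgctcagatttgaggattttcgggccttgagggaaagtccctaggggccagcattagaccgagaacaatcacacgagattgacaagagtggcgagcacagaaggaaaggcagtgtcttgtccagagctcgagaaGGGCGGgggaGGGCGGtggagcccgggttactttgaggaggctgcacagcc

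The GC box occurred 5 times in the *Cxcl12* window, counting a pair of matches that share 1 base, 3 times in that of *Cxcr4* and 2 times in that of *Csf1*. Of the 32851 RefSeq windows of this length, 32.7% held at least 1. The *Cxcr4* window also held the TATA box, as 2 overlapping matches on opposite strands near the start, an element found in 12.4% of all windows. The *Cxcl14* window held neither element, and GAGGAA, the core of the PU.1 site (either strand, in 23.3% of all windows), was in none of these 4. The ratio of observed to expected CpG was 0.540 for *Cxcl12*, 0.838 for *Cxcr4*, 0.519 for *Csf1* and 0.745 for *Cxcl14*, against a median of 0.373 over all windows. Windows were found for 6 of the 8 genes. Those of *Cx3cl1* and *Cx3cr1* overlap annotated exons of the same gene by 171 and 250 bases and are not printed, and none is shown for *Il34* and *Csf1r*. These matches describe the letters in the window and were not related to the counts.

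*Cxcl12* (ENSMUSG00000061353.11, GRCm38 chromosome 6, 117168535 to 117181367, plus strand) encodes the chemokine CXCL12, also called stromal cell-derived factor. It was read 3287 times in SVZ RNA and 156 times in cortex RNA. These counts correspond to 63.9 CPM (interval 61.7 to 66.1) and 7.07 CPM (6.01 to 8.28). The intervals lie far apart, and *Cxcl12* was 9.03-fold higher in SVZ RNA, a log2 ratio of 3.18 (2.94 to 3.42). It made up 70.5% of the reads of the 8 genes in SVZ RNA and 55.9% in cortex RNA. Of all 12738 genes tested, 94.1% had a lower ratio.

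Cells other than neural progenitors also make CXCL12, among them meningeal, endothelial and mural cells, so their marker lists are given beside it. For the meninges, 2 of 4 genes averaging 1 CPM or more were higher in SVZ RNA, and the list of 8 genes summed to 7.89 CPM in SVZ RNA and 6.49 CPM in cortex RNA. *Ogn* gave 3.09 CPM of the SVZ sum, with 159 SVZ reads and 1 cortex read. *Col1a2* was the other tested gene on the SVZ side (log2 ratio 0.36, -0.23 to 0.99). *Dcn* (-0.97) and *Lum* (-1.64) were higher in cortex RNA. *Aldh1a2* had no read in either library and *Col1a1* had 0 SVZ reads and 2 cortex reads. For endothelial cells 8 of 11 genes were higher in SVZ RNA (54.9% of all genes were), with sums of 207 CPM and 86.4 CPM, of which *Slco1c1*, a thyroid hormone transporter that astrocyte-lineage cells also carry, gave 115 and 9.07 CPM. For mural cells 5 of 6 tested genes were higher in SVZ RNA, with sums of 106 CPM and 69.7 CPM. The choroid plexus list of 6 genes summed to 246 CPM and 0.907 CPM, nearly all of it *Ttr*, and the intermediate progenitor list of 9 genes to 1562 CPM and 224 CPM. The part of these cells in the *Cxcl12* difference was not tested.

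*Cxcr4* (ENSMUSG00000045382.6, chromosome 1, 128588199 to 128592293, minus strand), the receptor of CXCL12, was low in both libraries and close to the limit of detection in cortex RNA. It had 55 reads in SVZ RNA and 4 in cortex RNA, or 1.07 CPM (0.806 to 1.39) and 0.181 CPM (0.0494 to 0.464). The intervals do not overlap, and the log2 ratio was 2.56 (1.12 to 4.49), a 5.89-fold higher level in SVZ RNA, or 0.81 with a pseudocount of 1 CPM. The ligand was read 59.8 times for each *Cxcr4* read in SVZ RNA and 39.0 times in cortex RNA. This pair ratio is free of the library totals, and its log2 change of 0.62 between the areas had an interval of -1.33 to 2.08, so a different balance of ligand and receptor was not detectable at this depth.

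Interneurons and Cajal-Retzius cells are the neurons best known for CXCR4, and their marker lists are given beside it. Of 12 interneuron genes tested 8 were higher in SVZ RNA (54.9% of all genes were) and 4 in cortex RNA, with a median log2 ratio of 0.28 but a mean of -0.18, and the list of 13 summed to 228 CPM and 568 CPM. *Npy*, a neuropeptide, gave 379 CPM of the cortex sum. Of the 8 Cajal-Retzius genes only *Reln* and *Calb2* reached a mean of 1 CPM, both higher in cortex RNA. Below that mean the genes were split. *Ebf3* was higher in SVZ RNA, with 57 SVZ reads, 4 cortex reads and a log2 ratio of 2.61 (1.18 to 4.54). *Trp73* (5 and 12 reads) and *Ndnf* (4 and 15 reads) were higher in cortex RNA, and the interval of *Ebf2* held equal levels. The list summed to 5.21 CPM in SVZ RNA and 32.2 CPM in cortex RNA, and *Lhx1* and *Lhx5* had no read in either. The part of these cells in the *Cxcr4* difference was not tested.

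*Ackr3*, the second receptor of CXCL12, which takes up the ligand without G protein signalling, differed less than *Cxcr4*. It had 124 reads in SVZ RNA and 47 in cortex RNA, or 2.41 and 2.13 CPM. Equal levels lie inside the counting interval of its log2 ratio, 0.18 (-0.32 to 0.69).

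*Cxcl14* (ENSMUSG00000021508.11, chromosome 13, 56288643 to 56296551, minus strand) had 189 reads in SVZ RNA, 3.67 CPM (3.17 to 4.24), and 0 in cortex RNA. The floor set for 0 reads is 3 reads, or 0.136 CPM of cortex RNA, and the exact Poisson interval of 0 reads ends a little above it, at 0.167 CPM. Taken at that floor *Cxcl14* was at least 27.0-fold higher in SVZ RNA, a log2 value of 4.76, and with the counting error of both libraries the exact interval of the log2 ratio begins at 4.44. For each *Cxcl14* read the SVZ library held 17.4 reads of *Cxcl12*. The cortex library held 156 reads of *Cxcl12* and none of *Cxcl14*, so that at the same floor the ratio of *Cxcl12* to *Cxcl14* was 2.99-fold higher there, a log2 change of -1.58 whose exact interval reaches up to -1.25.

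*Cx3cl1* (ENSMUSG00000031778.13, chromosome 8, 94772009 to 94782427, plus strand), which encodes fractalkine, the membrane-tethered chemokine of neurons, was the 1 gene of the 8 with the higher level in the cortex. It had 6 reads in SVZ RNA and 44 in cortex RNA, although the SVZ library was the deeper. Its levels were 0.117 CPM (0.0428 to 0.254) and 2.00 CPM (1.45 to 2.68), with intervals well apart. *Cx3cl1* was thus 17.1-fold higher in cortex RNA, a log2 ratio of -4.10 (-5.62 to -2.86), and 1.98% of all genes tested had a lower ratio. With a pseudocount of 1 CPM the log2 ratio was -1.42, short of 4-fold. Beside it, 10 of 10 excitatory neuron genes were higher in cortex RNA, with log2 ratios from -4.29 to -0.81 and sums of 2466 CPM in SVZ RNA and 7244 CPM in cortex RNA. None of these markers was at 0 in either library, and their part in the *Cx3cl1* difference was not tested. The proteases that shed CX3CL1 from the membrane were split in direction: *Adam10* had a log2 ratio of -0.16 (-0.22 to -0.10) and *Adam17* one of 1.46 (1.26 to 1.66). *Adam17* had 1536 and 239 reads without regard to strand and 1687 and 284 in the stranded columns together, a gap that arises where a gene overlaps another on the opposite strand.

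*Cx3cr1* (ENSMUSG00000052336.7, chromosome 9, 119901616 to 120069879, minus strand), the receptor of CX3CL1 on microglia, went the other way. It had 365 reads in SVZ RNA and 13 in cortex RNA, or 7.10 CPM (6.39 to 7.86) and 0.590 CPM (0.314 to 1.01). The intervals did not overlap, and *Cx3cr1* was 12.0-fold higher in SVZ RNA, a log2 ratio of 3.59 (2.80 to 4.51). Ligand and receptor therefore stood in opposite order in the areas. In the SVZ library there were 0.0164 reads of *Cx3cl1* for each read of *Cx3cr1*, and in cortex RNA 3.38. The change of this pair ratio was the widest of the 7 pairs compared, 206-fold or -7.69 on the log2 scale (-9.39 to -6.10).

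**Figure D2:**
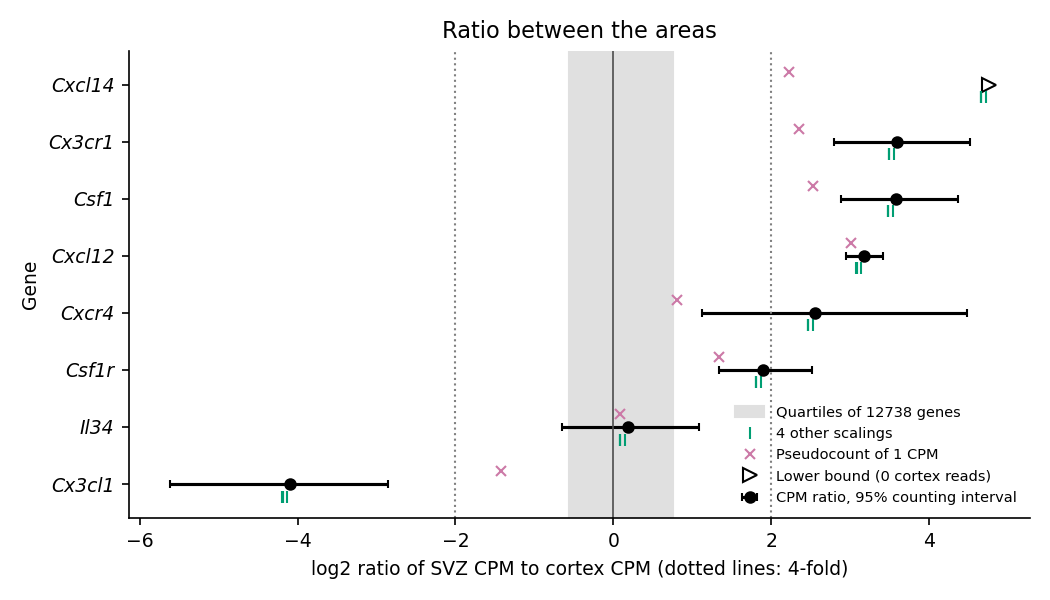
SVZ over cortex CPM ratio, on a log2 axis, for each gene (points) with its exact 95% counting interval (bars). The grey band spans the quartiles of all 12738 genes tested (-0.56 to 0.76), dotted lines mark 4-fold, green ticks are 4 other library scalings and crosses a pseudocount of 1 CPM. *Il34* lies in the band and *Cx3cl1* is alone on the cortex side. The triangle of *Cxcl14* is a lower bound.

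Of the ligands of CSF1R, *Csf1* differed between the areas and *Il34* did not detectably. *Csf1* (ENSMUSG00000014599.10, chromosome 3, 107741048 to 107760469, minus strand) encodes colony-stimulating factor 1, the growth factor of macrophages. It had 473 reads in SVZ RNA and 17 in cortex RNA, or 9.20 CPM (8.39 to 10.1) and 0.771 CPM (0.449 to 1.23). It was 11.9-fold higher in SVZ RNA, a log2 ratio of 3.58 (2.88 to 4.37), close to that of *Cx3cr1*.

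*Il34* (ENSMUSG00000031750.15, chromosome 8, 110741829 to 110805924, minus strand) encodes interleukin 34, known as the neuronal ligand of CSF1R in the forebrain. It had 45 reads in SVZ RNA and 17 in cortex RNA. Scaled to depth these were 0.875 CPM (0.638 to 1.17) and 0.771 CPM (0.449 to 1.23), with intervals that overlap over most of their length. The interval of the log2 ratio (0.18) ran from -0.65 to 1.08 and holds equal levels as well as a 2-fold difference towards the SVZ.

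The mixture of the ligands differed between the areas. *Il34* gave 8.69% (6.41% to 11.5%, exact binomial interval) of the reads of both ligands in SVZ RNA and 50.0% (32.4% to 67.6%) in cortex RNA. The ratio of *Il34* to *Csf1* was 10.5-fold higher in cortex RNA, a log2 change of -3.39 (-4.55 to -2.22). Per kb of exons, where *Il34* is the shorter gene, its share was 20.4% in SVZ RNA and 72.9% in cortex RNA.

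*Csf1r* (ENSMUSG00000024621.16, chromosome 18, 61100598 to 61132149, plus strand), the receptor of both ligands, had 244 reads in SVZ RNA and 28 in cortex RNA. Its levels were 4.74 CPM (4.17 to 5.38) and 1.27 CPM (0.844 to 1.84), with no overlap. The log2 ratio was 1.90 (1.33 to 2.52), 3.74-fold and so just short of 4-fold. *Csf1* differed more than its receptor. There were 1.94 reads of *Csf1* for each read of *Csf1r* in SVZ RNA and 0.607 in cortex RNA, a log2 change of 1.67 (0.72 to 2.66). *Il34* changed the other way against the receptor, with 0.184 and 0.607 reads for each read of *Csf1r* and a log2 change of -1.72 (-2.77 to -0.63).

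*Cx3cr1* and *Csf1r* are both receptors of microglia, and microglial markers as a whole were higher in SVZ RNA. Of 20 microglia genes, 16 had a mean of at least 1 CPM, and each of these 16 was higher in SVZ RNA, 12 of them at least 4-fold (10.2% of all genes). All of the 16 but *Sall1* had a mean of 1 to under 10 CPM, a range in which 18.6% of all genes were at least 4-fold higher in SVZ RNA. The log2 ratios of the 16 ran from 1.07 to 5.62 with a median of 3.26. The minimum is on the mean of both libraries, so genes low in cortex RNA could pass it through their SVZ level alone. *Aif1* (4.02 CPM in SVZ RNA and 0.272 CPM in cortex RNA) is an example. With no minimum on CPM the median of the list was also 3.26. The list summed to 177 CPM in SVZ RNA and 18.1 CPM in cortex RNA. Those with the highest mean CPM were *Sall1*, a transcription factor, *Ctss*, a lysosomal protease, and *P2ry12*, a purine receptor, with 2987 and 26, 847 and 25, and 807 and 37 reads. No gene of the list was at 0 in SVZ RNA. In the cortex library the lipid receptor gene *Trem2* (173 SVZ reads) and *Spi1* (73), which encodes the myeloid factor PU.1, had 0 reads, while the other defining markers *P2ry12* and *Tmem119* had 37 and 7.

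Against this list the receptors differed from each other. *Cx3cr1* had reads equal to 4.01% of the list's sum in SVZ RNA and 3.26% in cortex RNA, a log2 change of 0.30 whose interval of -0.51 to 1.24 holds no change. For *Csf1r* the figures were 2.68% and 7.02%, a log2 change of -1.39 (-1.98 to -0.75). *Sall1*, which neural progenitors express too, gave 58.1 of the 177 CPM. Without it, a choice made after the values were seen, the changes were 0.78 (-0.03 to 1.71) and -0.91 (-1.50 to -0.27). Set directly against *Cx3cr1*, *Csf1r* had 0.668 reads for each *Cx3cr1* read in SVZ RNA and 2.15 in cortex RNA, a log2 change of -1.69 (-2.79 to -0.66). Within the list 3 of 16 genes had a lower ratio than *Csf1r*, and 9 of 16 a lower ratio than *Cx3cr1*. Macrophages of the brain's borders also carry these receptors. Of 7 border macrophage genes only *Stab1* reached a mean of 1 CPM, with 65 and 25 reads (432 and 69 in the stranded columns). The list summed to 2.06 and 1.32 CPM, and *Lyve1*, *Cd163* and *Ms4a7* had no read in either library. The part of the number of microglia in the *Cx3cr1*, *Csf1r* and *Csf1* differences was not tested.

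Levels can be compared between genes only per length, here as CPM per kb of merged exons. The exons are those of GENCODE M21, which may differ from the gene models the authors counted on, and so may every value per kb, the share of *Il34* above included. In the SVZ library *Cxcl12* came first with 7.82 CPM per kb. It was followed by *Cxcl14* (2.01), *Csf1* (1.74) and *Cx3cr1* (1.58), where each overlapped the next within its counting interval. After them came *Csf1r* (0.822), *Cxcr4* (0.591) and *Il34* (0.447), in which neighbours again overlapped, and last *Cx3cl1* (0.0297), apart from all others. In the cortex library *Cxcl12* also came first, with 0.865 CPM per kb, and *Cx3cl1* (0.508) and *Il34* (0.394) moved up to the next places. *Csf1r* (0.220), *Csf1* (0.146), *Cx3cr1* (0.131) and *Cxcr4* (0.100) followed with overlapping intervals, and *Cxcl14* had no read. The order of *Csf1* and *Il34* was thus reversed between the areas, and the intervals of this pair did not overlap in SVZ RNA (1.59 to 1.91 and 0.326 to 0.598) and overlapped slightly in cortex RNA (0.0850 to 0.234 and 0.229 to 0.630).

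**Figure D3:**
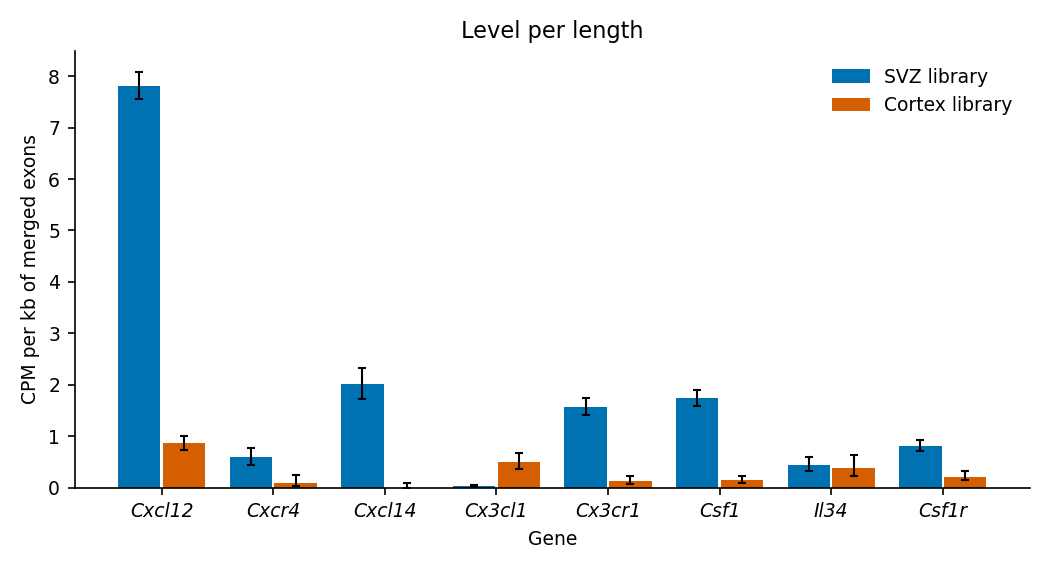
Level of each gene per length, as CPM per kb of merged exons, in SVZ RNA (blue bars) and cortex RNA (orange bars), with exact 95% Poisson intervals of the counts. *Cxcl12* is the tallest bar in both libraries (7.82 and 0.865), and *Cx3cl1* is the gene whose orange bar clearly exceeds the blue.

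The rest of the chemokine system was mostly read below 1 CPM. Of 33 further chemokine ligands 2 reached a mean of 1 CPM. *Ccl6*, a myeloid chemokine, had 105 reads in SVZ RNA and 5 in cortex RNA, a log2 ratio of 3.17 (1.90 to 4.82). *Ccl25*, best known from thymus and gut, had 396 SVZ reads and 303 cortex reads, with a log2 ratio of -0.84 (-1.06 to -0.62). Of 21 further receptors 3 reached 1 CPM, all of them atypical receptors that bind chemokines without signalling through G proteins: *Ackr1* (450 and 207 reads, log2 ratio -0.10), *Ackr2* (134 and 34 reads, 0.76) and *Ackr3*, given above. *Ackr2* alone of the 3 had an interval that left out equal levels (0.20 to 1.34). The median of the 3 was 0.18, beside 0.11 for all genes.

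Among 14 genes related to colony-stimulating factors, 7 reached 1 CPM, with 3 higher in SVZ RNA, 4 in cortex RNA and a median log2 ratio of -0.91. *Kitl*, which encodes the stem cell factor, had 2049 reads in SVZ RNA and 7718 in cortex RNA, a log2 ratio of -3.14 (-3.21 to -3.06), and its receptor gene *Kit* had 1151 SVZ reads and 1226 cortex reads, with a log2 ratio of -1.31 (-1.43 to -1.20). *Kitl* and *Kit* thus stood on the side opposite to *Csf1* and *Csf1r*, which belong to the same families of ligands and receptors. *Csf2ra*, a receptor subunit for granulocyte-macrophage colony-stimulating factor, was also higher in cortex RNA, with a log2 ratio of -0.91 (-1.17 to -0.66). *Ptprz1* and *Sdc1*, described as further binding partners of IL-34, had log2 ratios of 0.05 (0.01 to 0.09) and 0.87 (0.67 to 1.07), and that of *Ptprz1* fell below 0 under TMM, upper-quartile and DESeq2 scaling, other estimates of library size that shift all ratios by -0.0930, -0.0988 and -0.0932. The receptors of TGF-beta, a signal that keeps microglial identity, were divided: *Tgfbr1* had a log2 ratio of -1.70 (-1.75 to -1.65) and *Tgfbr2* one of 1.69 (1.16 to 2.27).

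Signalling partners and processing enzymes of chemokines and their receptors were detected at higher levels, with 11 of 13 genes averaging 1 CPM or more. Of these 4 were higher in SVZ RNA and 7 in cortex RNA, none of them 4-fold, with a median log2 ratio of -0.56. *Gnai2*, the inhibitory G protein subunit of blood cells and many other tissues, had a log2 ratio of 1.68 (1.58 to 1.79), whereas *Gnai1* had one of -0.67 (-0.72 to -0.62). *Gnai3* was also on the SVZ side (0.51). The beta subunit gene *Gnb1* (-0.99) and the arrestin gene *Arrb2* (-0.56) were higher in cortex RNA. *Hmgb1*, whose protein can bind CXCL12, had a log2 ratio of 0.85 (0.82 to 0.87).

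**Figure D4:**
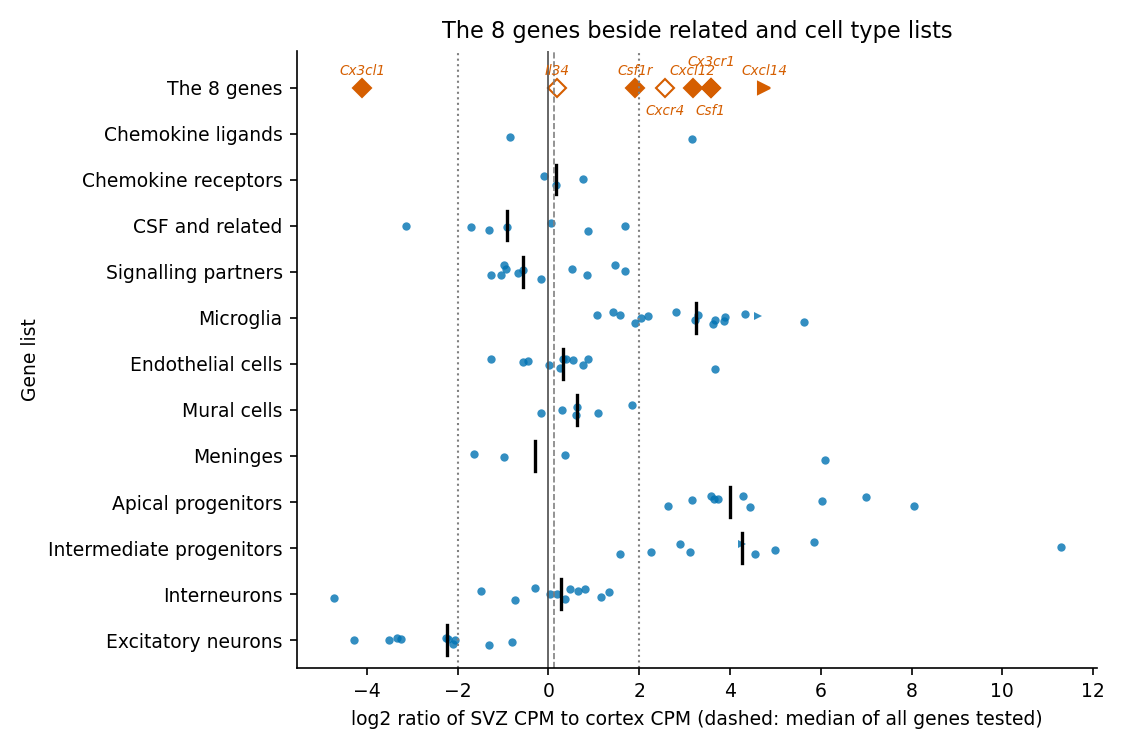
SVZ over cortex CPM ratio, on a log2 axis, for the 8 genes (orange, open where the mean was under 1 CPM) and for each gene averaging 1 CPM or more in related and cell type lists (blue), with black bars at list medians and triangles at bounds for genes with 0 cortex reads. The dashed line is the median of all genes tested (0.11) and dotted lines mark 4-fold. All 16 microglia genes lie right of 0, around *Cx3cr1*, and all 10 excitatory neuron genes left of 0, on the side of *Cx3cl1*.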

How the data were processed

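RNA of the SVZ and the cortex, 1 LCM library each, was studied. Per the study's methods, 1 ng of RNA per area went into a kit for small inputs, and both ends of each fragment were sequenced. The authors trimmed adapters with cutadapt 4.1 and mapped read 1 to mm10 (equal to GRCm38) with STAR 2.7.9a, which also produced the gene counts. These deposited counts are unscaled whole reads given for both strands together (used here) and for either strand alone. STAR sets aside reads that map to several places or hit more than 1 gene. Exons of *Cx3cr1*, *Il34* and *Csf1r* overlap other genes in the GENCODE M21 annotation. For all 8 genes the stranded columns summed to the unstranded count. This check covers only neighbours on the opposite strand in the gene models the authors counted on, so it cannot exclude stray reads. The authors' merged table, with CPM, fold changes and log10 changes, was not used.

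CPM was computed here on the total of gene rows, without the 4 summary lines. Ratios were taken without a pseudocount, with 3 reads in place of 0, and were left out for genes that had 3 reads or fewer in both areas. Intervals are Clopper-Pearson, Poisson or, for pairs of genes, exact conditional intervals of the odds ratio. Exon lengths and positions came from GENCODE M21. Genes and lists were chosen with earlier results of these data known. Named are the 8 genes, list genes averaging 1 CPM or more (up to the 8 highest per related list, 3 per cell type list) and microglia genes at 0, and others as stated. The erythroid list (sums of 20.4 and 10.9 CPM) is shown nowhere else. R 4.3.3 with edgeR 4.0.16 and DESeq2 1.42.0 (scaling only) and Python 3.11.15 with pandas 2.3.3, scipy 1.17.1 and numpy 2.4.6 were used. The ratios of single genes and their Clopper-Pearson intervals were tested on simulated Poisson counts, which hold no PCR copies. The other procedures were not tested in this way.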

Additional observations from a re-analysis of the deposited data

How the results depend on the processing

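No paired analysis was possible because neither area was sampled more than once, and no replicate could be left out. The sign of each of the 8 ratios held under TMM, upper-quartile and DESeq2 scaling, totals without the 10 most counted genes, the stranded sum and a pseudocount of 1 CPM. The scalings shifted all ratios by at most -0.0988 (log2). The pseudocount, which draws low counts towards 0, moved *Cxcr4* to 0.81, *Cxcl14* to 2.22, *Cx3cl1* to -1.42, *Cx3cr1* to 2.35 and *Csf1* to 2.53, left 0 of the 8 genes 4-fold higher in cortex RNA and 0 chemokine ligands 4-fold higher in SVZ RNA, and gave list medians of 1.94 (microglia), 3.00 (intermediate progenitors) and -2.14 (excitatory neurons). A minimum of 10 CPM, which only *Cxcl12* passes, left 1 of the 8 genes 4-fold higher in SVZ RNA and 0 in cortex RNA, left 0 chemokine ligands 4-fold higher in SVZ RNA, and gave medians of 0.87 (endothelial cells) and 3.83 (intermediate progenitors). With no minimum, 3 of the 33 listed chemokine ligands in all were 4-fold higher in SVZ RNA, where the main count was 1. In cortex RNA 3 were 4-fold higher, where the main count was 0. Of the listed receptors 2, and of the genes related to colony-stimulating factors 1, were 4-fold higher in SVZ RNA. The shares of all genes with no minimum were 11.8% for SVZ RNA and 9.30% for cortex RNA. Such shares were not computed with the pseudocount or at the minimum of 10 CPM, so the counts given for those settings have no background. The meningeal median turned from -0.30 to 0.20. List means in place of medians were 0.96 (meninges, reversed), -0.18 (interneurons, reversed), 4.66 (apical progenitors) and -2.51 (excitatory neurons). Excitatory neurons had a median of -2.33 under TMM, upper-quartile and DESeq2 scaling. Per kb of the longest transcript the SVZ levels were 11.4 (*Cxcl12*), 2.20 (*Csf1*) and 1.01 (*Csf1r*) CPM per kb. *Csf1* then stood above *Cxcl14* (2.01), the reverse of their order per kb of merged exons. Depth limits the ratios mainly through the cortex library, in which *Cxcl12* had 156 reads and each of the other 7 genes 44 or fewer.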

Other observations

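Below a mean of 1 CPM, some genes of the chemokine system were read in 1 library alone. They are named here because of these counts, chosen after the values were seen, and have no replicate check. *Ccl3* and *Ccl9*, chemokines of myeloid cells, had 91 and 65 reads in SVZ RNA and 0 in cortex RNA, or 13 and 9.29 times the floor of 3 cortex reads as CPM, and the exact intervals of their log2 ratios begin at 3.37 and 2.88. The chemokine receptor gene *Ccr10* (32 SVZ reads) and *Csf3r* (33), the receptor of granulocyte colony-stimulating factor, likewise had no cortex read, with 4.57 and 4.72 times that floor and intervals that begin at 1.81 and 1.86, short of 4-fold. The SVZ library was 2.33 times as deep, so a low gene was more likely to be read there. In the other direction *Ccl2*, the monocyte chemoattractant, had 13 cortex reads and 0 SVZ reads, or 10.1 times a floor of 3 SVZ reads as CPM, and *Cxcl1* had 9 and 0, or 7.00 times that floor. The intervals of their log2 ratios end at -2.83 and -2.20. Of the further ligands 15, and of the further receptors 11, had no read in either library when counted without regard to strand, *Ccr2* and *Cxcr3* among them. *Ackr4*, also among these receptors, had 16 SVZ reads and 2 cortex reads in the stranded columns together.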
